A study of Mus musculus with 6 samples.

Results

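The genes described here carry glucose into cells, break it down to pyruvate and handle the lactate and pyruvate that result. They were chosen by name from the annotation of the array, as every probe set whose gene symbol begins with Slc2a followed by a digit or is 1 of 35 listed names of glycolysis, lactate and pyruvate handling and glycogen turnover. This gave 83 probe sets of 44 genes among the 45101 probe sets of the array. Of these, 3 are manufacturer's control probe sets for Gapdh, which were described but not tested, and the 80 others belong to 43 of the 18193 genes that could be named. The names Gpi1, Eno1 and G6pdx matched no probe set and were not analysed here. The wording of the choice also caught Slc2a4rg-ps, a pseudogene of a Slc2a4 regulator that is no transporter, so that the 12 symbols of the first kind stand for 11 transporters.

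Gene expression was measured in stria vascularis, the epithelium in the lateral wall of the cochlea that secretes K+ into endolymph, from adult 129S6 mice with (Slc26a4+/+) and without (Slc26a4-/-) the anion exchanger pendrin. Mice were P148 ± 3 (Slc26a4+/+) and P153 ± 1 (Slc26a4-/-) old, were untreated as far as the labels and methods say, and were not perfused to remove blood. There were 3 gene chips per genotype, and each chip received the amplified total RNA (2 rounds) of a pool of 2 animals. The question put to these genes was whether their RNA levels differed between stria vascularis of Slc26a4-/- and Slc26a4+/+ mice.

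Stria vascularis is among the most metabolically active tissues of the inner ear, since K+ secretion by marginal cells depends on the Na,K-ATPase and its supply of ATP. Glucose reaches the tissue from strial capillaries through facilitative transporters of the Slc2a (GLUT) family. Hexokinases trap it inside the cell, phosphofructokinase commits it to glycolysis, and the enzymes of lower glycolysis yield ATP and pyruvate, which is either reduced to lactate and exported by monocarboxylate transporters or oxidised in mitochondria through the pyruvate dehydrogenase complex.

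The signals deposited for the 6 arrays had array means of 666 to 725 units on a linear scale. A probe set was taken as above background on an array when it exceeded the 95th percentile of the 44 probe sets of olfactory receptors, which lay between 187 and 319 units. Slc26a4 itself gave 1354, 1262 and 793 units in Slc26a4+/+ pools against 520.2, 717 and 618.5 in Slc26a4-/- pools, which does not check the labels, since it is not known whether its probes lie inside the deletion. The markers of the tissue were present, with 6 to 7 of 7 marginal cell, 6 to 8 of 8 intermediate cell and 4 of 4 basal cell markers above background on each array. The composition of the RNA differed between genotypes: the summed signal of 16 macrophage markers was 9495 to 13085 in Slc26a4+/+ pools and 63349 to 64106 in Slc26a4-/-, with 12 of the 16 higher, and that of 7 marginal cell markers was 52725 to 70042 and 39330 to 41345, with 2 of the 7 lower. Among defining marginal cell genes, Kcne1 was 1 of the 2 that fell, and none was at 0. Of 8 spiral ligament markers 4 were higher (sums of 19059 to 22182 against 26966 to 28875). Of 8 intermediate cell markers 2 were higher and 0 lower, while their summed signals overlapped (59231 to 68418 against 65667 to 67266). Of 4 basal cell markers 0 were called. Of 13 endothelial and pericyte markers 0 were called (7077 to 11197 against 11462 to 13706), with 5 higher at an unadjusted p under 0.05, and of 6 red blood cell markers 0 were called (837 to 2129 against 538 to 845), all with negative differences. The genotypes also differed in sex-linked genes, Xist with 771 to 3358 units in Slc26a4+/+ pools and 5530 to 5863 units in Slc26a4-/-, and the Y-linked Eif2s3y with 640 to 1541 and 3.1 to 3.6 units. The sex of the pooled animals is not given in the labels, so that sex and genotype cannot be told apart. Arrays 2 and 3 of Slc26a4+/+ stood apart in the ratio of 3′ to 5′ signal of actin, 4.10 and 3.88 against 1.78 to 2.25 on the other arrays.

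Of the 43 genes tested, 37 were above background on at least 2 arrays of a genotype, and 28 of them were above background on all 6 arrays. The transporters Slc2a2, Slc2a3 and Slc2a6, the muscle-type phosphoglycerate mutase Pgam2, the monocarboxylate transporter Slc16a3 and the muscle glycogen phosphorylase Pygm were below background on every array. Differences between genotypes were tested with limma on log2 signals, with Benjamini-Hochberg adjustment of the p-values across the whole array, and a gene with several probe sets was read from its brightest. At an adjusted p under 0.05, 1 of the 43 genes rose in Slc26a4-/- (Eno2) and 3 fell (Pgam1, Slc2a12 and Slc2a4). Over all named genes, 1.88% were higher and 0.803% were lower. When each array was centred on its median, Eno2 kept its call and the 3 lower calls were lost, with an adjusted p of 0.11 for Pgam1, 0.104 for Slc2a12 and 0.066 for Slc2a4, and 0 genes were called when the trend of spread on signal was left out of the test. At an unadjusted p under 0.05 the counts were 3 higher and 10 lower, beside 8.48% and 6.42% of all genes. The signals of the genotypes did not overlap in 3 genes that were higher in Slc26a4-/- and in 12 that were lower, beside 11.2% and 9.73% of all genes. The median log2 difference was -0.13 over the 43 genes and -0.03 over all named genes, with 16 positive and 27 negative differences among the 43. In RNA of a whole tissue, fewer cells of a type and less RNA per cell cannot be told apart.

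**Figure D1:**
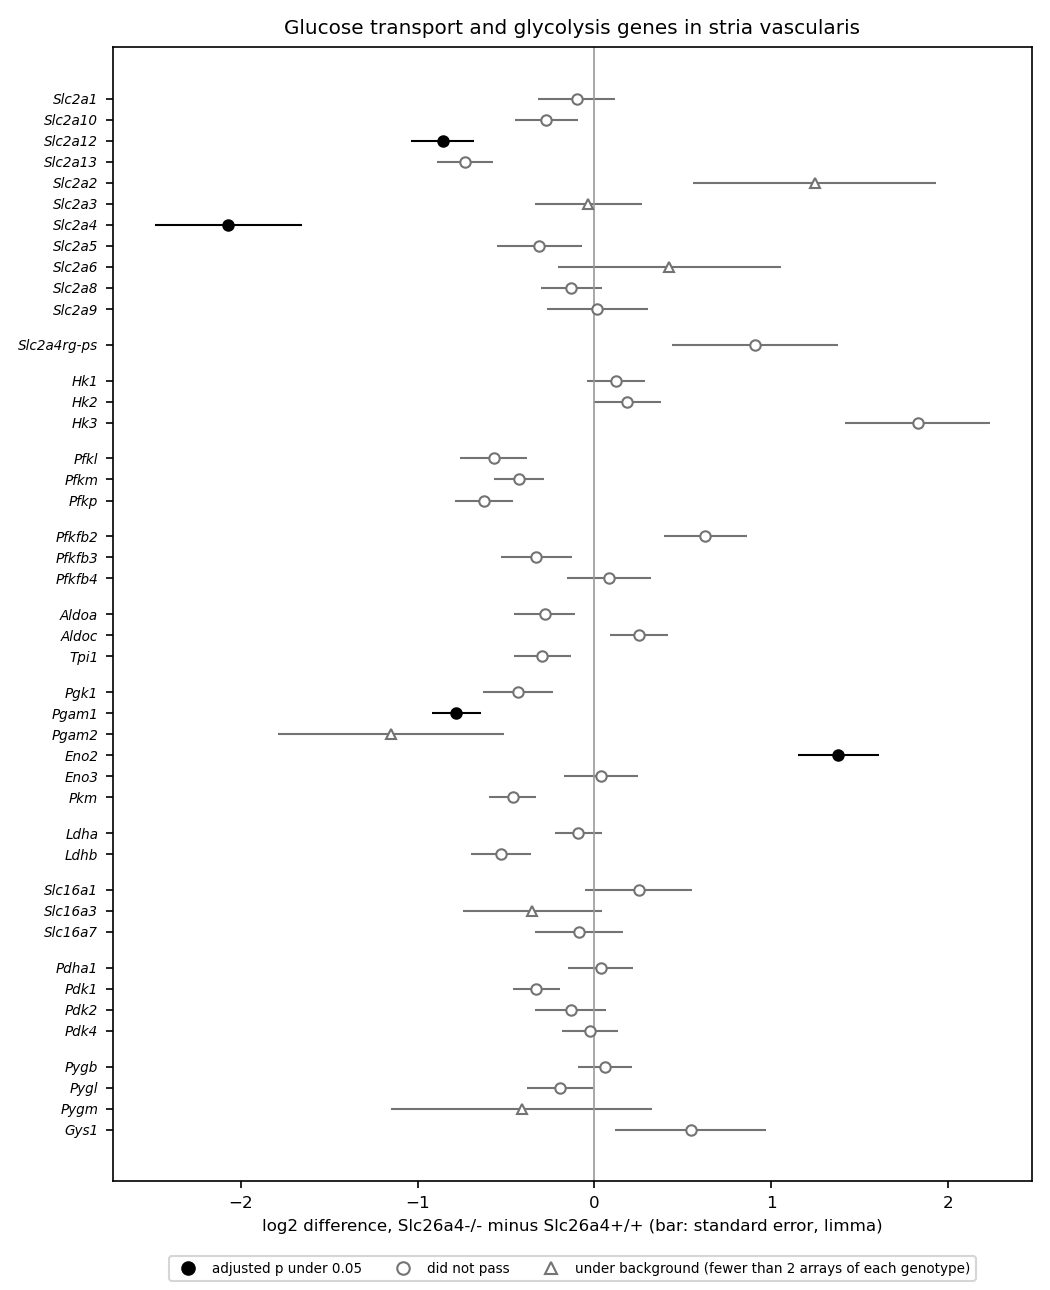
Log2 difference between Slc26a4-/- and Slc26a4+/+ (x axis, limma, 3 arrays each) of the 43 genes, arranged by role, with bars for the standard error. Filled circles are the 4 genes with an adjusted p under 0.05, open circles those that did not pass, and triangles the genes below background. Slc2a4 at -2.07 and Eno2 at 1.38 are the outermost filled points, and the signal of Slc2a4 lay below background on every Slc26a4-/- array, so that its place is an estimate beyond a bound.

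The 250 bases before the annotated start of 3 of the 4 genes that passed are shown from RefSeq (GRCm38.p6), so that the starts of genes that moved in opposite directions can be set side by side. They were searched on both strands for ACGTG, the core of the element that hypoxia-inducible factors bind in glycolytic promoters, and for the related GCGTG. Capitals mark each match (CACGC is GCGTG on the other strand). The windows are those of Pgam1 (chr19:41911621-41911870, plus strand), Eno2 (chr6:124769674-124769923, minus strand) and Slc2a12 (chr10:22644761-22645010, plus strand).
Pgam1: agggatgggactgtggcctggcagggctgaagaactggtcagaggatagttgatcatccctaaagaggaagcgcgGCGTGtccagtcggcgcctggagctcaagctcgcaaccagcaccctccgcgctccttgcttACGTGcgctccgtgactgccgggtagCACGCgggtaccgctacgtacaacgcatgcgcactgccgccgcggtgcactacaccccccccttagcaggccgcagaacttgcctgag
Eno2: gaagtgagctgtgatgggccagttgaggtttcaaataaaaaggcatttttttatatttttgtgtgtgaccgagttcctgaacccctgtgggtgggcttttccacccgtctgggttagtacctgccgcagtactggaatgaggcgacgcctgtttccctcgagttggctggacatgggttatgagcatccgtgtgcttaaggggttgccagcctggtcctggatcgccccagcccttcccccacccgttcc
Slc2a12: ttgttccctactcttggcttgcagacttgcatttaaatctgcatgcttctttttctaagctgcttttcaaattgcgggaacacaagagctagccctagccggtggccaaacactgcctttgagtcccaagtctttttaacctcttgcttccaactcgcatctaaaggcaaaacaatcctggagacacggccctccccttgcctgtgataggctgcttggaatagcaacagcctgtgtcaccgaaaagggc
The Pgam1 window held 3 matches, 1 to ACGTG and 2 to GCGTG, and the windows of Eno2 and Slc2a12 held 0. The GC content was 64% for Pgam1, 54.4% for Eno2 and 48.8% for Slc2a12. Either word was found in 37 of 53 windows of the genes described here (69.8%) and in 12679 of all 32851 windows (38.6%). Counted by gene, 29 of the 39 genes with an entry had a match in at least 1 window, beside 41.5% of all genes. Both words contain CG, and the windows compared were not matched for GC content. A match describes the letters of the window and is no measure of binding.

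Of the 11 facilitative transporter genes, which let sugars cross the cell membrane, 8 were above background, 2 fell and 0 rose. Slc2a12 encodes GLUT12, a glucose transporter of the plasma membrane and of intracellular membranes. Its signals were 886, 795 and 1084 in Slc26a4+/+ pools against 523, 547 and 449 in Slc26a4-/- pools. All Slc26a4-/- arrays lay below all Slc26a4+/+ arrays, and the log2 difference was -0.86 (SE 0.18, adjusted p = 0.0458 from limma). The suffix of its probe set, _s_at, marks probes that may detect several transcripts, and the other probe set of Slc2a12 was below background with a log2 difference of -1.06 (adjusted p = 0.506). The adjusted p of Slc2a12 lay between 0.044 and 0.259 when 1 array was left out at a time, and of these fits the call held only without Slc26a4+/+ array 1 (0.044). Over all 23 other settings it held under 7, among them the study's ratio of 1.3, which uses no p-value.

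Slc2a4 encodes GLUT4, the transporter that insulin brings to the surface of muscle and fat cells. Its signals were 202, 338 and 311 in Slc26a4+/+ pools and 57.6, 110.1 and 45.1 in Slc26a4-/-. The genotypes did not overlap, but 2 of the 3 Slc26a4+/+ arrays and 0 of the 3 Slc26a4-/- arrays were above background. Slc2a4 was at least 1.38-fold lower in Slc26a4-/- when measured against background (limma estimate -2.07 on the log2 scale, SE 0.42, adjusted p = 0.0397). Its other probe set was below background and had a log2 difference of 0.49. The adjusted p lay between 0.0326 and 0.175 when 1 array was left out at a time, and the call was lost without Slc26a4+/+ array 2 (0.175) or 3 (0.0932) and without Slc26a4-/- array 1 (0.158) or 3 (0.167). Markers of the cells best known for GLUT4 were at or near background: 0 of 14 skeletal muscle and 0 of 4 adipocyte markers counted as above background. Summed muscle signals were 568 to 1201 in Slc26a4+/+ pools and 551 to 789 in Slc26a4-/-, and summed adipocyte signals were 98.1 to 295 and 132 to 164. The log2 difference was negative for 11 of the 14 muscle and 3 of the 4 adipocyte markers, and 0 were called. The part of muscle or fat cells in the signal of Slc2a4 was not tested.

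Slc2a13 encodes HMIT, which carries myo-inositol together with protons and is grouped with the glucose transporters by sequence. Its signals were 3542, 3405 and 2611 in Slc26a4+/+ pools and 2131, 1792 and 1810.0 in Slc26a4-/-. The genotypes did not overlap, and the log2 difference of -0.73 (SE 0.16, adjusted p = 0.056 from limma) missed the threshold. Slc2a13 passed with quantile normalization, a mean signal of at least 300, array weights, the replicate block and averaged probe sets. It also passed in the limma fit without Slc26a4+/+ array 3 (adjusted p = 0.0144). The unadjusted t-test and the study's ratio of 1.3 called it too, but neither adjusts a p-value. No other adjusted setting with more than 1 Slc26a4+/+ array called it.

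The transporter that brings most glucose across blood-tissue barriers, GLUT1 or Slc2a1, had signals of 6965, 9401 and 13224 in Slc26a4+/+ pools and 8052, 9293 and 9398 in Slc26a4-/-. The spread within Slc26a4+/+ enclosed all Slc26a4-/- arrays. The log2 difference was -0.10 (SE 0.22, 95% confidence interval -0.58 to 0.38, adjusted p = 0.903), and the other 2 probe sets of Slc2a1 gave 0.08 and 0.03. Slc2a10, the transporter GLUT10, had signals of 544 to 672 in Slc26a4+/+ pools and 458 to 565 in Slc26a4-/- (log2 difference -0.27, SE 0.18, adjusted p = 0.612). Slc2a8, an intracellular glucose transporter, had 576 to 706 and 555 to 676 units (-0.13, SE 0.17, adjusted p = 0.83). In both genes the genotypes overlapped. The fructose transporter Slc2a5 had 228 to 314 units in Slc26a4+/+ pools and 211 to 242 in Slc26a4-/- (-0.31, SE 0.24, adjusted p = 0.68). The urate transporter Slc2a9 was above background on 0 Slc26a4+/+ arrays and 2 Slc26a4-/- arrays, with 160.2 to 244 and 164 to 242 units (0.02, SE 0.29, adjusted p = 0.989). Its other probe set was below background on every array and lower in Slc26a4-/- without overlap (-1.76, adjusted p = 0.216). The pseudogene Slc2a4rg-ps had 204, 152 and 52.9 units in Slc26a4+/+ pools and 199.7, 238 and 229 in Slc26a4-/- (0.91, SE 0.47, adjusted p = 0.505), with 1 Slc26a4+/+ array inside the Slc26a4-/- range.

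**Figure D2:**
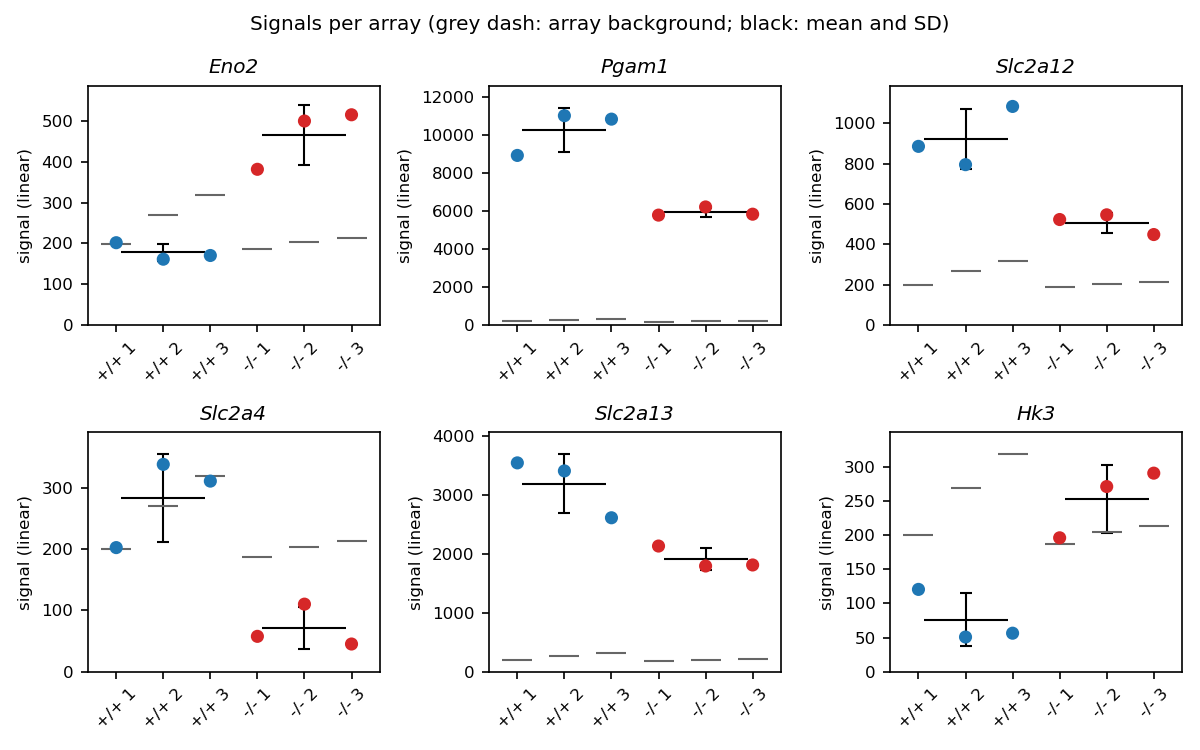
Signals (y axis, linear units from 0) of Eno2, Pgam1, Slc2a12, Slc2a4, Slc2a13 and Hk3 on each of the 6 arrays (x axis), with blue points for Slc26a4+/+ and red points for Slc26a4-/-, black lines for the mean and SD of 3 arrays and grey dashes for the background of each array. Pgam1 lay between 8917 and 11004 in Slc26a4+/+ and between 5781 and 6210.3 in Slc26a4-/-, Eno2 lay between 162 and 202 and between 382 and 515, and the red points of Slc2a4 lie below the dashes.

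None of the 3 hexokinases passed the threshold. Hk1, the form of most tissues, had signals of 4606, 5832 and 6459 in Slc26a4+/+ pools and 6927, 5798 and 5588 in Slc26a4-/- (log2 difference 0.12, SE 0.16, adjusted p = 0.83). Hk2, the insulin-regulated form of muscle, had 530.0, 542 and 696 units against 599.5, 622 and 792 (0.19, SE 0.19, adjusted p = 0.769). Both overlapped between genotypes. Hk3, the form of blood and myeloid cells, had 120.4, 50.7 and 56.3 units in Slc26a4+/+ pools and 196, 271 and 290.5 in Slc26a4-/-. It was below background on all Slc26a4+/+ arrays and above it on all Slc26a4-/- arrays, and the genotypes did not overlap. The limma estimate was 1.83 on the log2 scale (SE 0.41, adjusted p = 0.0638), and no fold is given, since the mean signal in Slc26a4-/- was no higher than the mean background of the Slc26a4+/+ arrays. Without Slc26a4+/+ array 1 the adjusted p was 0.0159. The macrophage markers moved the same way, as given above, with 9 to 11 of 16 above background in Slc26a4+/+ pools and 15 in Slc26a4-/-, and their part in the signal of Hk3 was not tested.

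The genes of the 3 subunits of phosphofructokinase-1, the enzyme that commits glucose to glycolysis, had lower signals in Slc26a4-/- with no overlap between genotypes, and none passed the threshold. The liver-type subunit Pfkl had signals of 11448, 15884 and 19294 in Slc26a4+/+ pools and 10079.6, 10695 and 9976 in Slc26a4-/- (log2 difference -0.57, SE 0.19, adjusted p = 0.239). The muscle-type subunit Pfkm had 2409, 3084 and 2706 against 2129, 1902 and 2039 units (-0.43, SE 0.14, adjusted p = 0.231). The platelet-type subunit Pfkp had 4558, 3625 and 3709 against 3071, 2429 and 2246 units (-0.62, SE 0.16, adjusted p = 0.112). For Pfkl the nearest of the Slc26a4+/+ arrays was array 1, for Pfkp array 2. All 3 genes had an unadjusted p under 0.05, beside the 6.42% of all genes given above.

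The bifunctional enzymes that set the level of the main activator of phosphofructokinase-1, did not move together. Pfkfb2 had signals of 1559, 1001 and 745 in Slc26a4+/+ pools and 1647, 1635 and 1598 in Slc26a4-/- (0.63, SE 0.24, adjusted p = 0.311). The genotypes did not overlap, although Slc26a4+/+ array 1 came close to the Slc26a4-/- arrays. The other probe sets of Pfkfb2 overlapped, with log2 differences of -0.23, 0.06 and 0.94, and none was above background on more than 1 array of a genotype. Pfkfb3 had 6287, 6376 and 3719.9 units against 4336, 4153 and 4195 (-0.33, SE 0.20, adjusted p = 0.594). Here Slc26a4+/+ array 3 lay below every Slc26a4-/- array. Pfkfb4 had 236 to 303 units in Slc26a4+/+, above background on 1 array, and 234 to 336 in Slc26a4-/- (0.08, SE 0.24, adjusted p = 0.93).

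Aldolases split the product of phosphofructokinase into triose phosphates, which triose phosphate isomerase interconverts, and all 3 genes overlapped between genotypes. Aldoa had signals of 12689, 17422 and 18988 in Slc26a4+/+ pools and 13405, 13662 and 12788 in Slc26a4-/- (log2 difference -0.28, SE 0.17, adjusted p = 0.588). Aldoc, the brain-type aldolase, had 748, 909.9 and 1004 against 1006, 1152 and 999 units (0.25, SE 0.16, adjusted p = 0.608). Tpi1 had 8145, 10738 and 10988 against 7201, 9016 and 8045 units (-0.29, SE 0.16, adjusted p = 0.542).

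Gapdh, which oxidises glyceraldehyde 3-phosphate, was measured by control probe sets at 3 positions along its transcript. The 3′ probe set had signals of 12509, 16034 and 19868 in Slc26a4+/+ pools and 12617, 12972 and 12301 in Slc26a4-/-. The middle probe set had 9778, 8486 and 7896 against 8418, 8761 and 8463 units, and the 5′ probe set had 5555, 2231 and 1887 against 3412, 3414 and 3683 units. The order of the genotypes thus depended on the position of the probes: Slc26a4+/+ arrays 2 and 3 were the highest of all arrays at the 3′ end and the lowest at the 5′ end. The 3′ to 5′ ratio of Gapdh was 2.25, 7.19 and 10.5 in Slc26a4+/+ pools and 3.70, 3.80 and 3.34 in Slc26a4-/-.

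**Figure D3:**
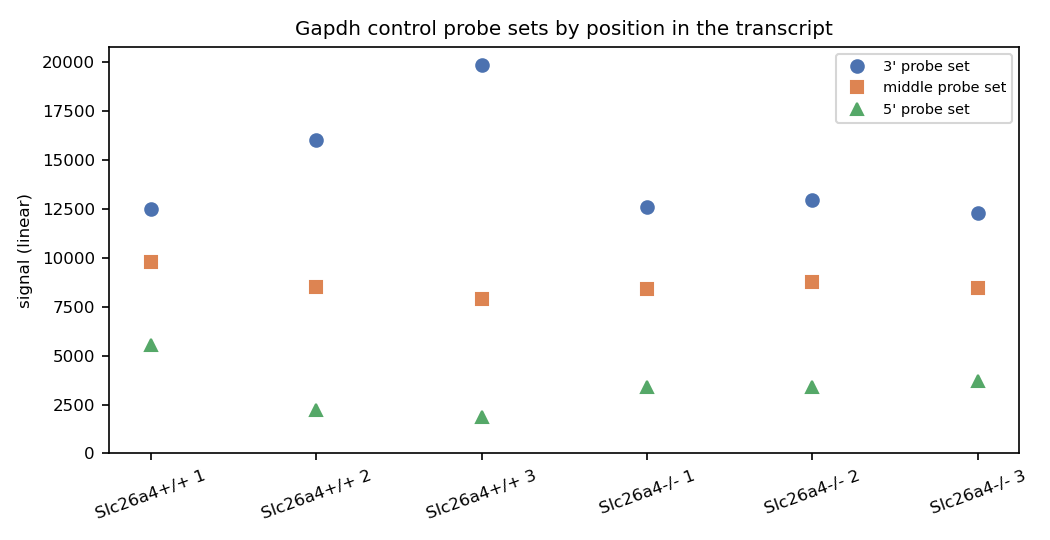
Signal (y axis, linear units from 0) of the 3 Gapdh control probe sets on each of the 6 arrays (x axis), 1 point per array, with the 3′ probe set as circles, the middle one as squares and the 5′ one as triangles. The 3′ and 5′ points spread from each other on Slc26a4+/+ arrays 2 (16034 and 2231) and 3 (19868 and 1887), while the 3 Slc26a4-/- arrays are alike.

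Lower glycolysis held the smallest adjusted p of these genes in each direction. Pgam1, the phosphoglycerate mutase of most tissues, had signals of 8917, 11004 and 10823 in Slc26a4+/+ pools and 5781, 6210.3 and 5829.9 in Slc26a4-/-. Every Slc26a4-/- array was below every Slc26a4+/+ array, and Pgam1 fell 1.72-fold (log2 difference -0.78, SE 0.14, adjusted p = 0.0227 from limma). The call was lost without Slc26a4+/+ array 2 (adjusted p = 0.112) or any 1 of the Slc26a4-/- arrays (0.154, 0.124 and 0.171). The log2 difference lay between -0.99 and -0.59 over all 22 other settings.

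Eno2, the neuronal form of enolase, had signals of 202, 162 and 171 in Slc26a4+/+ pools and 382, 499.8 and 515 in Slc26a4-/-. It was above background on 1 of 3 Slc26a4+/+ arrays and on all Slc26a4-/- arrays, and the genotypes did not overlap. Eno2 rose (limma estimate 1.38 on the log2 scale, SE 0.23, adjusted p = 0.0167). Since 2 of the 3 Slc26a4+/+ signals lay below background, the rise was also measured against background, where it was at least 1.78-fold. The call was lost without Slc26a4+/+ array 2 (adjusted p = 0.0652) or any 1 of the Slc26a4-/- arrays (0.06, 0.128 and 0.148). Of 9 neuron markers 0 were called, and 7 were below background on all arrays. The other 2 (Syt1 in Slc26a4+/+ and Map2 in Slc26a4-/-) were above background on 2 arrays of a genotype. The summed signal of the 9 was 782 to 930.5 in Slc26a4+/+ pools and 762 to 825 in Slc26a4-/-. The part of neurons or of other cells in the signal of Eno2 was not tested.

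The other genes of lower glycolysis did not pass. Pgk1, the X-linked phosphoglycerate kinase, had signals of 16091, 19047 and 27740.0 in Slc26a4+/+ pools and 15172, 15624 and 14632 in Slc26a4-/- (log2 difference -0.43, SE 0.20, adjusted p = 0.437). Pkm, the pyruvate kinase of most tissues, had 7479, 8602 and 8973 against 6227, 5812 and 6105 units (-0.46, SE 0.13, adjusted p = 0.155). In both the genotypes did not overlap, and Slc26a4+/+ array 1 was the nearest to Slc26a4-/-. Eno3, the muscle enolase, had 344, 476 and 491 against 397, 508 and 431 units (0.04, SE 0.21, adjusted p = 0.969) and overlapped. The ubiquitous enolase, Eno1, was not among the named probe sets, so the signal of Eno2 cannot be set beside it.

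Among the genes of lactate and pyruvate, none passed. Ldhb, the lactate dehydrogenase subunit of oxidative tissues, had signals of 14468, 18279 and 21922 in Slc26a4+/+ pools and 12509, 12812 and 12038 in Slc26a4-/-. The genotypes did not overlap, with Slc26a4+/+ array 1 again the nearest, and the log2 difference was -0.53 (SE 0.17, adjusted p = 0.219). All 4 probe sets of Ldhb were lower without overlap, with log2 differences of -0.58 to -0.48. Ldha, the subunit of glycolytic tissues, had 6959, 7155 and 6312 against 6864, 6359.7 and 5967 units (-0.09, SE 0.13, 95% confidence interval -0.38 to 0.20, adjusted p = 0.848) and overlapped. Of the monocarboxylate transporters, which carry lactate and pyruvate, Slc16a1 had 1308, 705 and 485 units in Slc26a4+/+ pools and 878, 909 and 946 in Slc26a4-/- (0.25, SE 0.30, adjusted p = 0.811). Slc16a7 had 199 to 294 units in Slc26a4+/+ pools and 237 to 252 in Slc26a4-/- (-0.08, SE 0.25, adjusted p = 0.932). For both transporters the Slc26a4+/+ arrays lay on either side of the Slc26a4-/- arrays.

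Pdha1, the X-linked catalytic subunit of the pyruvate dehydrogenase complex, had signals of 7728, 6932 and 4769.7 in Slc26a4+/+ pools and 6837, 6460.2 and 6243 in Slc26a4-/- (log2 difference 0.04, SE 0.18, adjusted p = 0.965). Its other probe set was lower in Slc26a4-/- without overlap (-0.27), so its probe sets disagreed in sign. Of the kinases that switch the complex off, 1 was separated between genotypes. Pdk1 had 3529, 3312 and 2871 units against 2514, 2527 and 2674, which did not overlap (-0.33, SE 0.13, adjusted p = 0.363). Pdk2 had 573 to 796 against 492 to 716 units (-0.13, SE 0.20, adjusted p = 0.854), and Pdk4 had 723 to 888 against 758 to 894 units (-0.02, SE 0.16, adjusted p = 0.975). Both overlapped.

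None of the 4 glycogen genes passed. Of the phosphorylases that release glucose from glycogen, Pygb, the brain form, had signals of 1469, 1162 and 1374 in Slc26a4+/+ pools and 1417, 1225 and 1532 in Slc26a4-/- (log2 difference 0.06, SE 0.16, adjusted p = 0.92). Pygl, the liver form, had 890.4, 905 and 686 against 743, 603 and 827 units (-0.19, SE 0.19, adjusted p = 0.758). The glycogen synthase Gys1 had 305, 159.9 and 94.2 against 175, 261 and 311 units and was above background on 1 Slc26a4+/+ array and 2 Slc26a4-/- arrays (0.54, SE 0.43, adjusted p = 0.686). All 3 overlapped between genotypes.

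Among the 43 genes, 22 had 1 probe set and 21 had several. In 8 of the 21 the log2 differences of the probe sets had both signs, and 0 genes had probe sets called in both directions. Over the 80 probe sets, 1 was called higher and 3 lower (1.19% and 0.54% over all probe sets), and 3 were higher and 21 lower without overlap between genotypes (8.46% and 9.4% over all probe sets). Aldoa was represented by 5 probe sets with log2 differences of -0.28 to -0.10, Tpi1 by 3 (-0.29, -0.24 and 0.03), Pgk1 by 3 (-0.43, -0.42 and -0.34) and Pfkl by 3 (-0.57, -0.51 and -0.18). The Pfkl probe set with -0.51 had the smallest adjusted p of that gene, 0.124.

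**Figure D4:**
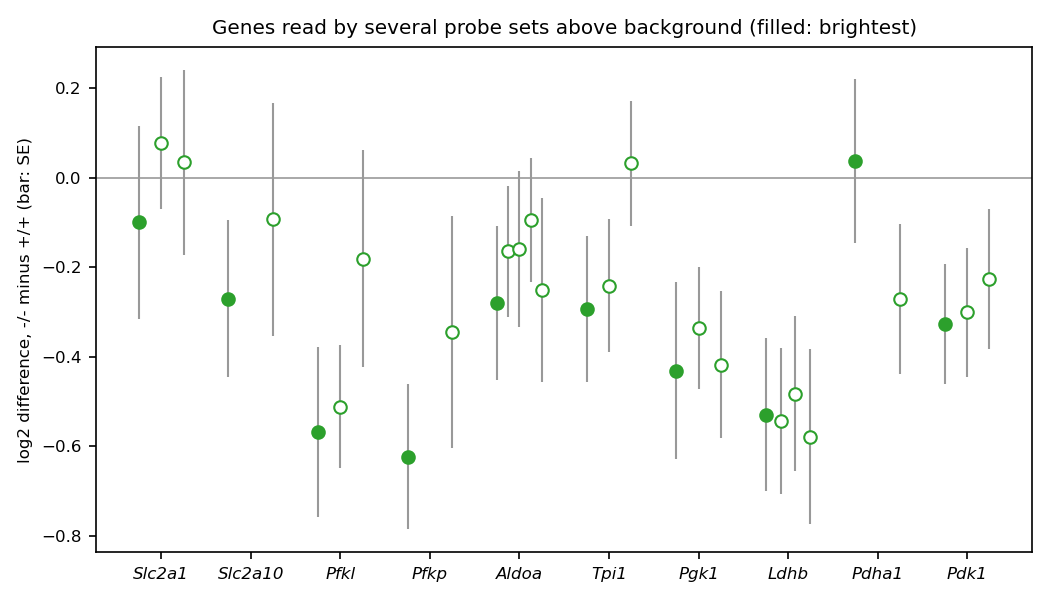
Log2 difference between Slc26a4-/- and Slc26a4+/+ (y axis, limma) of each probe set of the 10 genes read by several probe sets above background (x axis), with bars for the standard error and a filled point for the brightest probe set of a gene. The 4 probe sets of Ldhb lie together between -0.58 and -0.48, while those of Slc2a1, Tpi1 and Pdha1 lie on both sides of 0.

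The level of these genes was followed over the arrays as the deviation of each gene from its own mean over the 6 arrays. The median deviation of the 37 genes above background was 0.08, 0.12 and 0.15 (log2) over the Slc26a4+/+ arrays against -0.13, -0.0037 and -0.13 over the Slc26a4-/- arrays, while that of all genes above background stayed between -0.04 and 0.03. Of the 37 genes, 20 were highest on Slc26a4+/+ array 2 or 3 (54.1%), as were 43.8% of all genes above background, and 11 were lowest on 1 of these arrays, as were 40.3% of all genes above background. On a Slc26a4-/- array 19 were lowest, as were 34.6% of all genes above background. Slc26a4+/+ arrays 2 and 3 are those with the high 3′ to 5′ ratio. With the 3′ to 5′ ratio of actin as a covariate, 0 of the 43 genes were called in either direction, and calls over all probe sets fell to 299 higher and 85 lower from 535 and 243. The log2 differences were then 1.19 for Eno2, -0.62 for Pgam1, -0.80 for Slc2a12 and -1.61 for Slc2a4 (adjusted p = 0.113, 0.0871, 0.199 and 0.258). With Slc26a4+/+ arrays 2 and 3 left out, which leaves 1 Slc26a4+/+ array, they were 1.19, -0.59, -0.81 and -1.62, given as values only, since the spread within Slc26a4+/+ is then not measured.

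**Figure D5:**
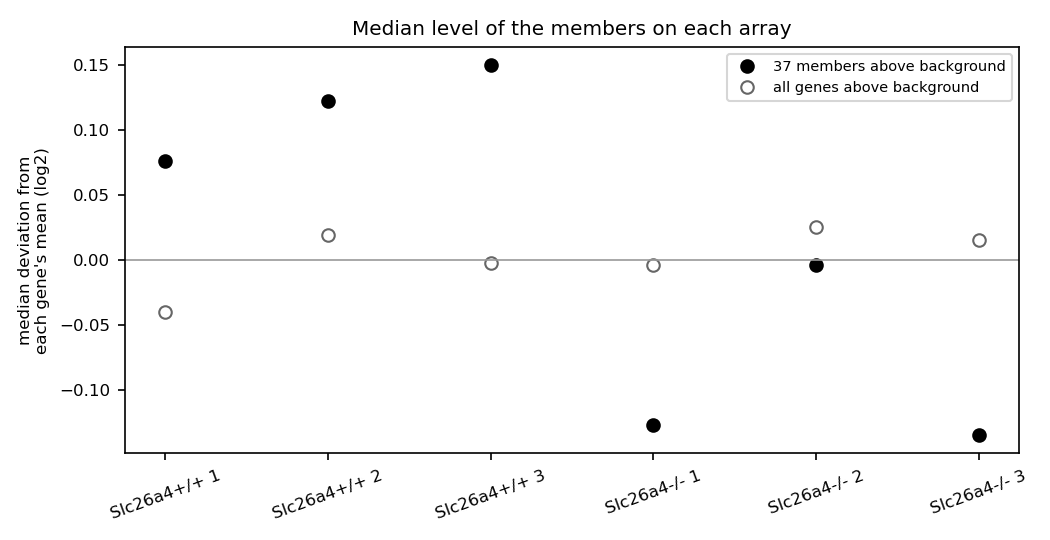
Median deviation (y axis, log2) of the 37 members above background (filled circles) and of all genes above background (open circles) on each of the 6 arrays (x axis), each gene taken against its own mean over the arrays. The filled circles lie at 0.08 to 0.15 on the Slc26a4+/+ arrays and at or below -0.0037 on the Slc26a4-/- arrays, and the open circles lie between -0.04 and 0.03.

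Other genes of the pathway were read from a list of 94 measured genes, of which 68 were above background. At an adjusted p under 0.05, 4 of the 94 were higher and 0 lower, beside 1.88% and 0.803% of all genes, and at an unadjusted p under 0.05 the counts were 11 and 14, beside 8.48% and 6.42%. Their median log2 difference was -0.07. Gyg encodes glycogenin, the protein on which a glycogen particle is started. Its signals were 3015, 4029.9 and 3327 in Slc26a4+/+ pools and 7739.7, 7336 and 8059 in Slc26a4-/-. All Slc26a4-/- arrays were above all Slc26a4+/+ arrays, and Gyg rose 2.25-fold (log2 difference 1.17, SE 0.15, adjusted p = 0.0037), with a p under the threshold when any 1 array was left out (0.00425 to 0.0395). The call of Gyg was lost without the trend (adjusted p = 0.129), with Xist as a covariate (0.457) and under the adjusted t-test of the methods (0.474). Slc16a9, a monocarboxylate transporter of the lactate transporter family that carries carnitine, had 329, 283 and 395 against 578, 662 and 698 units. It rose 1.94-fold without overlap (0.95, SE 0.20, adjusted p = 0.0436), and the call was lost without Slc26a4+/+ array 2 (0.147) or any 1 of the Slc26a4-/- arrays (0.144, 0.22 and 0.265).

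The other 2 of the 4, Ldhc, the lactate dehydrogenase of testis (adjusted p = 0.0468), and Myc, a transcription factor that acts on glycolytic genes (adjusted p = 0.0118), were below background on all arrays, so no fold is given. The call of Ldhc was lost in 14 of 22 other settings, among them the fits without any 1 array (adjusted p = 0.0557 to 0.233), and that of Myc in 6 of 21, among them the fits without any 1 of the Slc26a4-/- arrays (0.0725, 0.0852 and 0.092) and with the actin ratio (0.0761) or Xist (0.291) as a covariate. By list, 2 of 41 other genes of glycolysis, gluconeogenesis and pyruvate rose, 1 of 25 genes of the pentose phosphate pathway and glycogen, and 1 of 28 regulators of the response to hypoxia and glucose. Among the 28 regulators 2 were higher and 6 lower at an unadjusted p under 0.05 from limma, beside 8.48% and 6.42% of all genes. Without overlap 3 were higher and 7 lower, beside 11.2% and 9.73% of all genes.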

How the data were processed

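Stria vascularis RNA of 3 Slc26a4+/+ and 3 Slc26a4-/- pools was measured on Affymetrix mouse 430 2.0 arrays. For each array the authors deposited a linear intensity per probe set, computed and scaled by GCOS according to the submitters' processing notes and the methods (version and scaling target not given in the sources used here). Arrays were grouped by their titles, and what the titles call control is Slc26a4+/+ per the methods. Probe sets were named by the platform annotation, 34945 of 45037 with 1 symbol.

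Values under 1 (172 in all) were raised to 1 before taking log2, and the genotypes were compared without further normalization in R 4.3.3 by the linear models of limma 3.58.1, whose spread followed a trend on the signal. The p-values were two-sided, their Benjamini-Hochberg adjustment covered every probe set tested, and the threshold was 0.05. The method was tested on simulated data with independent noise in each probe set and differences planted in bright probe sets only. That simulation held no structure shared by the probe sets of an array and no sex difference. It planted no differences near background, so it does not show how the calls fare under these. Since the labels do not say that the pools of a genotype came from separate litters or preparations, p-values measure the spread between these arrays, and their number, 3 per genotype, limits the precision. A fold is 2 to the power of the log2 difference, or, for a gene below background on all arrays of a genotype, a bound against background.

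The genes, the lists of pathway and marker genes and the tests were chosen with earlier results of these data known. Named were all members above background or past the threshold and the pathway genes past the threshold, and Syt1, Map2, Xist, Eif2s3y and Kcne1 were named in addition after their values were seen. Alternatives were other centring, pseudocounts of 16 and 64, a mean signal of at least 300, other models of the spread, a replicate block, the methods' paired t-test, covariates for 3′ to 5′ ratio and Xist, the study's ratio of 1.3, other readings of a gene and leaving out arrays. A fit without both Slc26a4+/+ arrays of high 3′ to 5′ ratio was added after the data were seen and is given as values, since it leaves 1 array in that genotype. Promoter windows came from RefSeq.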

Additional observations from a re-analysis of the deposited data

How the results depend on the processing

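Precision rests on 3 arrays per genotype, and a signal below background gives only a bound. Macrophage, marginal cell, spiral ligament and sex-linked RNA moved with genotype, as did 2 of 8 intermediate cell markers, and sex cannot be told apart from genotype.

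The 1 gene called higher and 3 called lower were as many with centring on the 75th percentile, quantile normalization, both pseudocounts, the filter on mean signal and the replicate block. The genes were not always the same. With quantile normalization Slc2a13 was called in place of Slc2a12. With the filter on mean signal it was called in place of Slc2a4, which the filter left out. With the replicate block the lower genes were Pgam1 (adjusted p = 0.0321), Slc2a4 (0.0313) and Slc2a13 (0.0434), while Slc2a12 was lost (0.0691), and 832 probe sets were called against 778 without it. Deviations of same-numbered arrays correlated by 0.26, 0.13 and 0.09 over all genes above background, and the first of these was the highest of all pairs. Array 3 of Slc26a4+/+ correlated best with array 2 of Slc26a4-/- (0.16). The methods state no pairing of the arrays, and these values do not decide whether same-numbered arrays belong together. Centring on the median gave 1 gene higher and 0 lower (also 0 probe sets lower), and over the whole array 359 probe sets higher and 89 lower against 535 and 243. Without a trend 0 of the genes and 0 of their probe sets were called in either direction, and 1 other pathway gene was higher, with 114 calls over the array. With array weights 4 genes were higher and 11 lower (probe sets 4 and 18, other pathway genes 9 and 12), with 4084 calls over the array. The methods' t-test, paired by number, gave 0 and 0 (probe sets 0 and 0, other pathway genes 0 higher) after Benjamini-Hochberg. Unadjusted it gave 2 and 6 (probe sets 2 and 8, other pathway genes 8 and 6), with 3980 calls over the array. The study's ratio rule, applied without its condition on present calls, gave 4 and 14 (other pathway genes 19 and 23). Over all genes it gave 2912 higher and 3944 lower. Its calls included Pgam2, Pygm and Slc2a2, which were below background on every array. Averaging the probe sets of each gene gave 1 and 2, with 1 other pathway gene lower. Leaving out probe sets with the suffix _a_at, _s_at or _x_at left 36 of the 43 genes. It gave 0 and 1 (probe sets 0 and 1, other pathway genes 2 higher), with 525 calls over the array. The setting was meant to drop probes that may cross-hybridise with other genes, but _a_at marks probes for several transcripts of the same gene. The only probe sets of Eno2 and Pgam1, both with the suffix _a_at, were left out there, which is no sign that they detect other genes. Their calls thus could not be tested in this setting.

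With the 3′ to 5′ ratio of actin as a covariate 0 genes were called in either direction (probe sets 0 and 0, other pathway genes 1 and 1). With Xist as a covariate 0 genes were called either way (probe sets 0 and 0, other pathway genes 0 higher), 27 probe sets were called higher and 0 lower over the array, and the median of the 43 genes moved to -0.26. Without Slc26a4+/+ replicates 2 and 3, a fit added after the data were seen, 0 genes were higher and 3 lower, with 0 probe sets higher and 3 other pathway genes lower. That fit has 1 Slc26a4+/+ array, which is assumed to vary like the Slc26a4-/- arrays, so its calls support nothing. Leaving out 1 array at a time gave 0 to 3 genes higher and 0 to 6 lower, 0 to 3 probe sets higher and 0 to 9 lower, 1 to 4 other pathway genes higher and 0 to 3 lower, and a median of -0.20 to -0.07. Without Slc26a4+/+ array 1 the counts were 3 and 6, with 1714 calls over the array against 778 with all arrays. Without Slc26a4+/+ array 2 or Slc26a4-/- array 1 or 3 they were 0 and 0, with 384, 257 and 219 calls over the array. Without Slc26a4-/- array 2 they were 0 and 1, with 266 calls over the array. The counts of these genes thus moved along with the calls over the whole array. The cause of these shifts was not tested.

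The signs of genes that were not called also moved. The log2 difference of Pdk4 became 0.057 with centring on the median, that of Slc2a9 became -0.015 with the 75th percentile and that of Slc2a1 became 0.062 with quantile normalization. Array weights gave -0.070 for Pdha1, -0.050 for Eno3 and -0.053 for Slc2a9. The actin ratio gave 0.00068 for Aldoa, 0.22 for Slc2a1, -0.16 for Pdha1, -0.089 for Pygb, -0.36 for Slc16a1, 0.094 for Pdk2, 0.024 for Slc2a8 and -0.22 for Gys1. Xist gave -0.043 for Pdha1, -0.051 for Hk1, -0.26 for Eno3 and -0.13 for Slc2a9. The study's rule gave -0.13 for Pdha1 and -0.58 for Slc2a9, and averaged probe sets gave 0.0036 for Slc2a1, -0.12 for Pdha1, -0.87 for Slc2a9 and -0.087 for Gys1. Without probe sets with the suffix _a_at, _s_at or _x_at Slc2a1 was at 0.034. Without Slc26a4+/+ replicates 2 and 3 Aldoa was at 0.066, Slc2a1 at 0.35, Pdha1 at -0.25, Pygb at -0.085, Slc16a1 at -0.52, Pdk2 at 0.066, Slc2a8 at 0.052 and Gys1 at -0.33. Leaving out 1 array at a time gave -0.13 to 0.13 for Eno3, -0.014 to 0.23 for Hk1, -0.17 to 0.18 for Pdha1, -0.26 to 0.0097 for Pdk2, -0.12 to 0.029 for Pdk4, -0.046 to 0.21 for Pfkfb4, -0.036 to 0.15 for Pygb, -0.077 to 0.64 for Slc16a1, -0.27 to 0.011 for Slc16a7, -0.33 to 0.14 for Slc2a1 and -0.15 to 0.17 for Slc2a9.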
